A study of Mus musculus with 6 samples.

Results

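Ripply1, the gene deleted in this study, was examined together with the related gene Ripply3, the T-box genes Tbx2, Tbx3 and Tbx20, and the Groucho-family genes Tle1, Tle2, Tle3, Tle4 and Tle6. These 10 genes were the rows of the deposited table of 18260 genes whose symbols matched a fixed list of the targeted co-repressor, its T-box partners and the TLE co-repressors. Of the 10, 9 had enough reads to enter the genome-wide test and Ripply1 did not. Tbx19, which the title of the series names, was not analysed here.

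RNA was sequenced from primary hepatocytes of liver tumours in male mice of 2 genotypes, with 3 libraries each. Ripply1 ΔHep mice carried Ripply1 alleles with loxP sites around exons 1 to 3 together with Alb-Cre, a recombinase transgene driven by the albumin promoter and therefore active in hepatocytes. Ripply1 F/F mice carried the same floxed alleles, and the labels name no Cre for them. Mice of both genotypes were given 1 intraperitoneal injection of the liver carcinogen diethylnitrosamine (DEN, 90 μg per g) at 6 weeks of age. After 3 weeks without treatment their food held 0.05% phenobarbital (PB), which promotes liver tumours, for 27 weeks, and hepatocytes were isolated 30 weeks after DEN. The labels do not say whether each library came from 1 animal or 1 tumour, so p-values measure the spread between these libraries, which may be partly technical.

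T-box proteins bind DNA and switch their target genes on or off. Ripply proteins bind T-box factors and, through a short peptide of tryptophan, arginine, proline and tryptophan (WRPW), bring in Groucho/TLE proteins, which bind no DNA themselves and silence the gene by way of histone deacetylases. In the mouse embryo Ripply1 and Ripply2 act on Tbx6 as somites form. In liver, Tbx3 is needed for hepatoblasts to grow and is known as a target of β-catenin.

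The sequences below show where the deletion falls relative to the peptide that recruits Groucho. Each is the start of exon 2, the first 55 of 76 bases in Ripply1 and the first 58 of 76 in Ripply3, on the coding strand from GENCODE M21 (mm10), with the codons for WRPW in capitals; the bases shown are at chrX:139781134-139781188 on the minus strand for Ripply1 and at chr16:94329346-94329403 on the plus strand for Ripply3.
Ripply1: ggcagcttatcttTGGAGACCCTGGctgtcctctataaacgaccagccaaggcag
Ripply3: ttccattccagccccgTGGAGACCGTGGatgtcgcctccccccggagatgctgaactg
In both genes the motif lay in exon 2 of 4, in frame, starting at codon 60 of 201 in Ripply1 and at codon 40 of 152 in Ripply3. Exon 2 of Ripply1 is inside the floxed interval. Exon 4 of Ripply1, at 464 of 811 transcript bases (57.2%), is outside it and stays on a deleted allele. Whether it is still transcribed there was not tested.

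**Figure D1:**
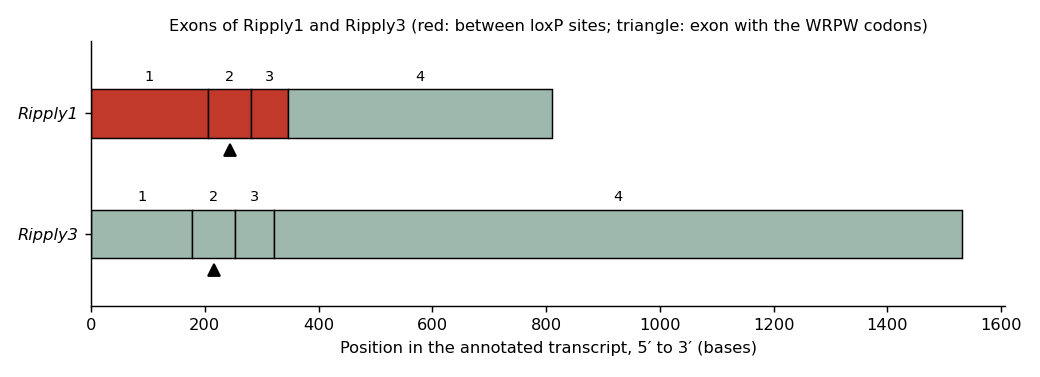
Exons of the annotated Ripply1 and Ripply3 transcripts drawn to scale in bases from the 5′ end, with exon numbers above, exons between the loxP sites in red and a triangle under the exon with the WRPW codons. In both genes the triangle is under exon 2, and exon 4 of Ripply1 (464 bases) is not red.

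Total counts per library were 31484308 to 35894395 in ΔHep and 27772849 to 32199523 in F/F, so 1 CPM (the level used here, in counts relative to the TMM-scaled total of a library) was worth 26.7 to 37.9 reads. Markers of hepatocytes were abundant in every library: the 9 of 10 listed that the table holds summed to 98150 to 126943 CPM in ΔHep and 111445 to 119088 CPM in F/F. Markers of other cells were present too, and their sums did not overlap between the genotypes and were higher in ΔHep for every such list except those of macrophages and cholangiocytes, where the ranges overlapped. The 12 stellate cell and fibroblast markers summed to 693 to 946 CPM in ΔHep and 339 to 519 CPM in F/F, and 6 of them passed the test. Of all 14552 genes tested, 1.68% passed. The 10 endothelial markers summed to 606 to 702 CPM in ΔHep and 330 to 555 CPM in F/F (1 passed), and the 12 macrophage markers to 668 to 890 CPM in ΔHep and 282 to 729 CPM in F/F (0 passed). The 10 cholangiocyte markers summed to 89.9 to 167 CPM in ΔHep and 51.0 to 108 CPM in F/F (5 of 9 tested passed). Of these sums Spp1 alone held 49.8, 111 and 57.4 CPM in ΔHep replicates 1, 2 and 3. In F/F replicates 1, 2 and 3 it held 28.4, 21.5 and 81.5 CPM. For 6 of the 9 tested all ΔHep libraries were above all F/F libraries, as for 15.3% of all genes tested. The 12 T and NK cell markers summed to 12.9 to 30.7 CPM in ΔHep and 7.08 to 10.5 CPM in F/F, and the 7 B and plasma cell markers to 19.5 to 31.6 CPM in ΔHep and 6.60 to 14.1 CPM in F/F, with 0 past the test in either list. Without ΔHep replicate 2 or 3, or F/F replicate 1 or 2, the count past the test was 0 in every one of these lists. Few genes of any kind passed in those fits: 4, 5, 2 and 1 over all genes, in that order. Without ΔHep replicate 1 the count was 7 for stellate cells, 2 for cholangiocytes and 0 for endothelium, with 215 over all genes. Without F/F replicate 3 it was 9, 7 and 7 for these lists and 10 for macrophages, with 1246 over all genes. In that fit 1 T and NK cell marker and 1 B and plasma cell marker passed too. With the replicate number as a block 5 stellate, 2 cholangiocyte, 2 endothelial and 1 B and plasma cell markers passed, and 236 genes over all. DESeq2 called 10 stellate, 6 cholangiocyte, 4 macrophage, 3 endothelial, 2 T and NK cell and 1 B and plasma cell markers, all higher in ΔHep. Over all genes it called 1304. With library totals unscaled the counts were 7, 6, 2, 2, 2 and 1 in that order, with 644 over all genes. No marker of any of these lists was at 0 in all 6 libraries. In 1 respect a library stood apart: ΔHep replicate 3 had the lowest level of the 6 libraries for 15 of 17 hepatic β-catenin targets (88.2%), against 20.2% of all 14552 genes tested.

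Ripply1 was nearly absent from ΔHep libraries and scarce in F/F libraries. There were 1, 1 and 2 reads in ΔHep replicates 1, 2 and 3, against 13, 8 and 12 reads in F/F replicates 1, 2 and 3. Each ΔHep library was under the level that 3 reads stand for (0.0792 to 0.0918 CPM), and each F/F library was above it. Pooled reads gave a ratio of ΔHep to F/F of 0.101, with an exact 95% interval of 0.0259 to 0.283 that covers counting error only. An exact permutation test of CPM, two-sided, gave p = 0.1, which is as low as a design of 3 against 3 can go. The table gives 1 count per gene, so reads of exons 1 to 3 and of exon 4 cannot be told apart. In bulk samples fewer expressing cells and less RNA per cell cannot be told apart either.

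The stretch directly upstream of exon 1 of Ripply1 was also looked at. The labels name only the floxed exons, so whether this stretch stays on a deleted allele is not known. RefSeq (GRCm38.p6) promoter windows were found for 7 of the 10 genes, in 9 windows, and the 250 bases before each start were searched. TATAAA on the coding strand was in 1 of the 9, that of Ripply1, where it began 42 bases before the start, and in 7.59% of all 32851 windows. The 250 bases upstream of Ripply1 were 48.4% G and C, against 52.4% to 77.2% in the other 8 windows. The window of Ripply1 (chrX:139782354-139782603, minus strand, TATAAA in capitals) and that of Tbx20 (chr9:24774304-24774553, minus strand, no match), the T-box gene with the lowest p below, were as follows.
Ripply1: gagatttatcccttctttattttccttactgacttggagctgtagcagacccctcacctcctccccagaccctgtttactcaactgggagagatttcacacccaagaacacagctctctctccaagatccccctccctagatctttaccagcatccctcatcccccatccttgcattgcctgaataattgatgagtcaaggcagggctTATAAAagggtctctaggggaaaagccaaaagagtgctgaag
Tbx20: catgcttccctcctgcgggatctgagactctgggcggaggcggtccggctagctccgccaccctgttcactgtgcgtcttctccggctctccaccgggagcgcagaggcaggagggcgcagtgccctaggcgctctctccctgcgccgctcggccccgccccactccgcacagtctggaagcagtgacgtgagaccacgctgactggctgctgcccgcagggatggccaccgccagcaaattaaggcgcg
The T-box half-site AGGTGTGA, searched on both strands, was in 0 of the 9 windows and in 1.12% of all windows. The TCF/LEF letters ATCAAAG, also on both strands, were in 0 of the 9 and in 3.21% of all windows. With no match of either, no match overlapped another.

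The other 9 genes were tested with edgeR's quasi-likelihood test, with Benjamini-Hochberg adjustment over 14552 genes and a threshold of 0.05. None passed (0 of 9), while 1.68% of all genes tested did, 1.51% as higher and 0.165% as lower in ΔHep. At an unadjusted p below 0.05 there were 2 higher in ΔHep, Tbx20 and Tle1, and 2 lower, Tbx3 and Tle4; of all genes tested 14.1% were higher and 6.97% lower at that level. The median log2 fold change of the 9 was -0.12, and that of all genes tested was -0.01. DESeq2 called 2 of the 10, Ripply1 lower and Tbx20 higher in ΔHep, and without F/F replicate 3 edgeR called 1, Tbx20. Over all genes, DESeq2 called 1304 of 18260, and edgeR without F/F replicate 3 called 1246 of 15049.

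**Figure D2:**
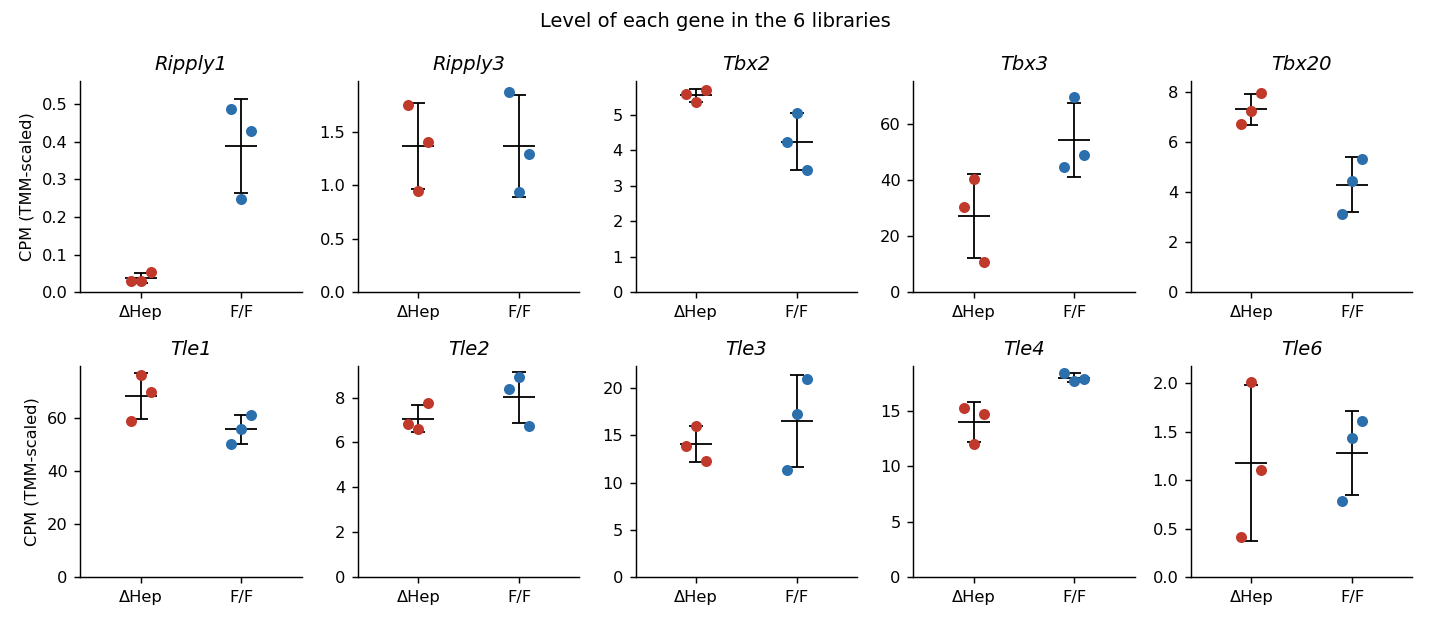
CPM of each of the 10 genes by library, with ΔHep in red at the left and F/F in blue at the right of each panel; points are the 3 libraries of a group and black bars the mean and SD. The groups do not overlap for Ripply1, Tbx3 and Tle4, which are lower in ΔHep, or for Tbx2 and Tbx20, which are higher in ΔHep. Of all genes tested, 11.8% were lower and 15.3% higher in ΔHep without overlap.

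Ripply3, the other Ripply gene in the table, was at similar low levels in both genotypes. It had 1.75, 0.948 and 1.40 CPM in ΔHep replicates 1, 2 and 3, against 1.87, 0.935 and 1.29 CPM in F/F replicates 1, 2 and 3. The groups overlapped over nearly their whole range. The fold of ΔHep over F/F was 1.00, with a 95% interval from 0.545 to 1.85 (edgeR, adjusted p = 0.996). Read counts were 31 to 59 in ΔHep and 30 to 50 in F/F.

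Of Tbx2, Tbx3 and Tbx20, Tbx3 had the highest level per kilobase of exon in every library. Tbx3 had 30.5, 40.2 and 10.7 CPM in ΔHep replicates 1, 2 and 3, against 44.4, 69.3 and 48.8 CPM in F/F replicates 1, 2 and 3. Every ΔHep library was below every F/F library, and ΔHep replicate 3 was far below the other two. Of all genes tested, 11.8% had ΔHep libraries all below F/F libraries. The log2 fold change was -1.0 (SE 0.41, 95% interval -1.93 to -0.08) and did not pass (edgeR, adjusted p = 0.208). Without ΔHep replicate 3 it was -0.62 (adjusted p = 0.257). An antisense gene, Tbx3os1, overlaps 697 bases of Tbx3; whether reads were counted by strand is not given in the sources used here.

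Other targets of β-catenin in hepatocytes were low in that same library. Glul, glutamine synthetase of hepatocytes next to the central vein, was chosen after its values were seen. It had 1223, 1260 and 452 CPM in ΔHep replicates 1, 2 and 3, against 1142, 1084 and 1463 CPM in F/F replicates 1, 2 and 3. ΔHep replicate 3 was far below the other 5 libraries, which lay close together, and the log2 fold change was -0.33 (edgeR, adjusted p = 0.628), or 0.013 without that library. Sp5, a zinc-finger factor, had 1.39, 2.14 and 0.396 CPM in ΔHep, against 2.77, 3.24 and 2.76 CPM in F/F. As for Tbx3, every ΔHep library was below every F/F library (log2 fold change -1.17, SE 0.50, adjusted p = 0.233). Rnf43, a ubiquitin ligase that removes Wnt receptors, had a value of -1.15 on the same scale (SE 0.52; edgeR, adjusted p = 0.254). Without ΔHep replicate 3 these values were -0.73 for Sp5 (adjusted p = 0.346) and -0.81 for Rnf43 (adjusted p = 0.503). Of the 17 targets tested apart from Tbx3, 0 passed in edgeR or in DESeq2, 1 was lower at an unadjusted p below 0.05 (6.97% of all genes tested were), and the median log2 fold change was -0.24. The part of this library's low β-catenin targets in the Tbx3 difference was not tested beyond leaving the library out.

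**Figure D3:**
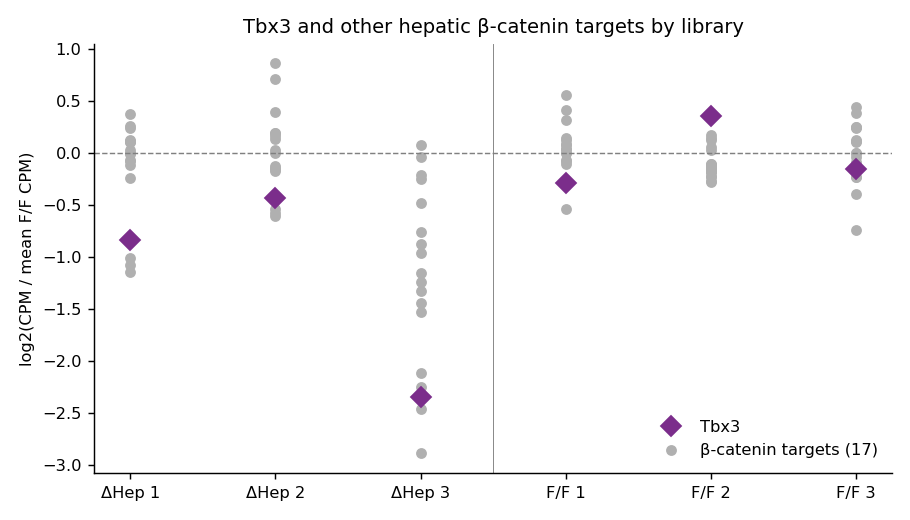
log2 of CPM over the mean F/F CPM in each library, with the ΔHep libraries left of the F/F libraries; the diamond is Tbx3 and grey points are 17 other hepatic β-catenin targets. ΔHep replicate 3 is the lowest of the 6 libraries for Tbx3 and for 15 of the 17 targets.

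Tbx20, a T-box factor best known from the heart, had the lowest p of the 9 genes. It had 6.72, 7.25 and 7.94 CPM in ΔHep replicates 1, 2 and 3, against 3.11, 4.45 and 5.30 CPM in F/F replicates 1, 2 and 3. All ΔHep libraries were above all F/F libraries, as for 15.3% of all genes tested. The log2 fold change was 0.77 (SE 0.22, 95% interval 0.26 to 1.27), and it did not pass in edgeR (unadjusted p = 0.00783, adjusted p = 0.107). It passed with DESeq2 (log2 fold change 0.76, adjusted p = 0.0345) and, in edgeR, without F/F replicate 3 (0.94, adjusted p = 0.0418); over the other edgeR fits the adjusted p ran from 0.0697 to 0.286.

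Tbx2, the close paralogue of Tbx3, was also higher in ΔHep without passing. It had 5.57, 5.35 and 5.70 CPM in ΔHep replicates 1, 2 and 3, against 4.23, 5.05 and 3.44 CPM in F/F replicates 1, 2 and 3. The groups did not overlap, but the lowest ΔHep and the highest F/F library were close. Of all genes tested, 15.3% had ΔHep libraries all above F/F libraries. The log2 fold change was 0.38 (SE 0.20, 95% interval -0.07 to 0.84; edgeR, adjusted p = 0.308). Stellate cell and endothelial markers, whose sums are given above, were higher in the same ΔHep libraries as Tbx2 and Tbx20, and their part in these differences was not tested.

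The levels of the T-box genes were also set against each other per kilobase of merged exon. The ratio of Tbx3 to Tbx2 was 3.00, 4.11 and 1.03 in ΔHep replicates 1, 2 and 3, against 5.75, 7.51 and 7.77 in F/F replicates 1, 2 and 3. The ratio of Tbx20 to Tbx3 was 0.122, 0.0996 and 0.409 in ΔHep, against 0.0386, 0.0355 and 0.0600 in F/F. Neither ratio overlapped between the groups, and Tbx3 exceeded both other genes in all 6 libraries, in ΔHep replicate 3 by little over Tbx2. These ratios were chosen after the levels of the genes were known and carry no test.

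Of 15 further Ripply and T-box genes listed besides Tbx19, the table holds 4, and Mga alone had enough reads to be tested. Mga, a very large protein with both a T-box and a Max-binding domain, had 52.6, 47.2 and 45.1 CPM in ΔHep, against 51.9, 55.7 and 61.1 CPM in F/F (log2 fold change -0.22, SE 0.11; edgeR, adjusted p = 0.285). Tbx21 and Eomes, T-box factors of T and NK cells, were rare. Tbx21 had 14, 9 and 15 reads in ΔHep replicates 1, 2 and 3, against 3, 5 and 7 reads in F/F replicates 1, 2 and 3, and Eomes 5, 1 and 2 reads against 0 in each F/F library. Markers of T and NK cells were higher in the same ΔHep libraries, and their part was not tested. Tbx6, the partner of Ripply1 in the embryo, had 6, 11 and 8 reads in ΔHep, against 5, 5 and 2 reads in F/F.

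**Figure D4:**
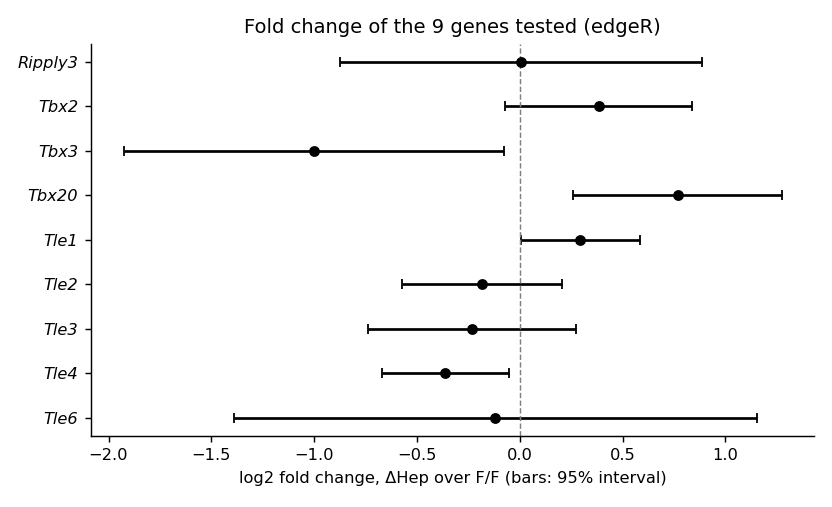
log2 fold change of ΔHep over F/F for the 9 genes tested, with bars for the 95% interval from edgeR and a dashed line at 0. The intervals of Tbx3, Tbx20, Tle1 and Tle4 lie to one side of 0, and that of Tle6 is the widest, from -1.39 to 1.15.

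The Groucho genes, which encode the co-repressors that Ripply proteins recruit, were all detected in every library. Of the 5 Tle genes Tle1 had the highest level per kilobase of exon in every library. Tle1 had 58.8, 76.0 and 69.8 CPM in ΔHep replicates 1, 2 and 3, against 50.2, 55.6 and 61.1 CPM in F/F replicates 1, 2 and 3. The groups overlapped between the lowest ΔHep and the highest F/F library. The log2 fold change was 0.29 (SE 0.13, 95% interval 0.00 to 0.58; edgeR, adjusted p = 0.232).

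Tle4, another long Groucho protein, had lower levels in ΔHep without passing. It had 15.3, 12.0 and 14.8 CPM in ΔHep replicates 1, 2 and 3, against 18.5, 17.8 and 17.9 CPM in F/F replicates 1, 2 and 3. All ΔHep libraries were below all F/F libraries, as for 11.8% of all genes tested. The F/F libraries differed little from each other. The log2 fold change was -0.36 (SE 0.14, 95% interval -0.67 to -0.05) and did not pass in edgeR (adjusted p = 0.182) or in DESeq2 (adjusted p = 0.168).

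Tle2 and Tle3 overlapped between the genotypes. Tle2 had 6.81, 6.61 and 7.76 CPM in ΔHep, against 8.39, 8.91 and 6.74 CPM in F/F, a log2 fold change of -0.18 (95% interval -0.57 to 0.21; edgeR, adjusted p = 0.578). Tle3 had 13.9, 16.0 and 12.3 CPM in ΔHep, against 11.4, 17.2 and 21.0 CPM in F/F, a log2 fold change of -0.23 (95% interval -0.74 to 0.28; edgeR, adjusted p = 0.591). The antisense genes Gm11250 and Gm15917 overlap Tle1 and Tle2 by 682 and 1380 bases.

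Tle6, a shorter and divergent member of the family known from the maternal protein complex of the mouse egg, was rare and uneven. It had 0.415, 2.02 and 1.11 CPM in ΔHep replicates 1, 2 and 3, against 0.787, 1.43 and 1.61 CPM in F/F replicates 1, 2 and 3, from 14 to 66 reads in ΔHep and 21 to 46 reads in F/F. The ΔHep libraries held both the lowest and the highest level of the 6. The log2 fold change was -0.12, with a 95% interval from -1.39 to 1.15 (edgeR, adjusted p = 0.928), and it was 0.29 without ΔHep replicate 1 and 0.07 without F/F replicate 3.

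Per kilobase of merged exon, Tle1 made up more of the summed level of the 5 Tle genes in ΔHep, a sum that leaves out Aes. Its share was 56.9% to 62.7% in ΔHep libraries and 49.6% to 51.8% in F/F libraries, and the groups did not overlap. The share of Tle4 was 15.1% to 22.7% in ΔHep libraries and 23.1% to 28.0% in F/F libraries, also without overlap. The ratio of Tle1 to Tle4 was 2.51, 4.15 and 3.10 in ΔHep replicates 1, 2 and 3, against 1.78, 2.05 and 2.24 in F/F replicates 1, 2 and 3. Tle2 and Tle3 held 7.63% to 10.1% of the sum in ΔHep libraries and 7.99% to 13.3% in F/F libraries, and Tle6 at most 4.70% in any library. The shares of a sum cannot move independently of each other. The shares and the ratio restate the levels of the same genes given above and carry no test.

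**Figure D5:**
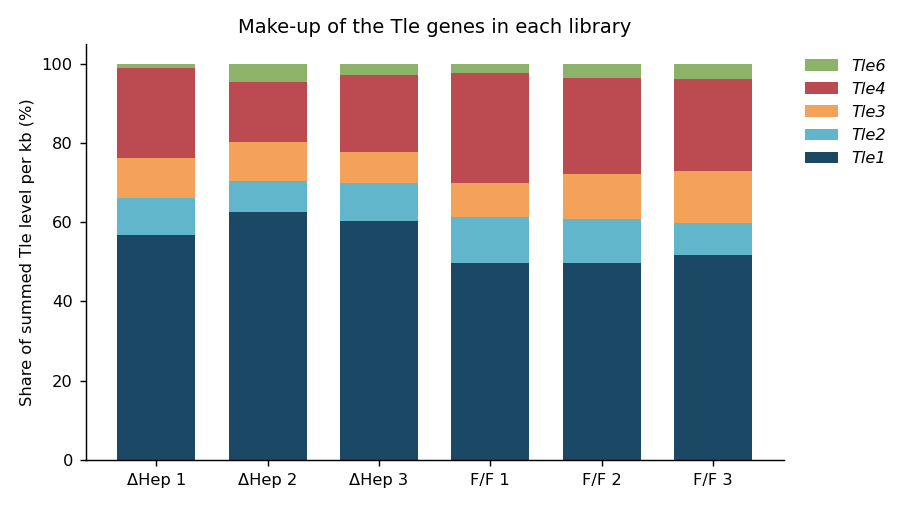
Share of each Tle gene in the summed CPM per kilobase of the 5 Tle genes, as stacked bars for the 3 ΔHep libraries at the left and the 3 F/F libraries at the right. Tle1 is at the bottom of each bar, with 56.9% to 62.7% in ΔHep and 49.6% to 51.8% in F/F.

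Aes, a short Groucho-family gene that lacks the WD repeats with which the long proteins bind their partners, was much read in both genotypes, with 324, 388 and 342 CPM in ΔHep, against 389, 415 and 356 CPM in F/F. The fold change of Aes was -0.14 on the log2 scale (95% interval -0.42 to 0.14; edgeR, adjusted p = 0.562).

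The levels of the 10 genes were set in order by CPM per kilobase. In ΔHep libraries Tle1 came first with 7.83 ± 1.00 CPM per kilobase, ahead of Tbx3 with 4.10 ± 2.27 (SD, n = 3), and their ranges did not overlap. In F/F libraries Tbx3 came first with 8.18 ± 2.00 CPM per kilobase and Tle1 followed with 6.39 ± 0.629 (SD, n = 3), with ranges that overlapped. Tle4 was next, with 2.46 ± 0.313 in ΔHep and 3.16 ± 0.0670 in F/F. Its range overlapped that of Tbx3 in ΔHep and was clear of both neighbours in F/F.

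Tbx2, Tle3 and Tle2 followed, with means between 1.13 and 1.53 CPM per kilobase in ΔHep and between 1.17 and 1.42 in F/F. In ΔHep the range of Tbx2 lay above those of Tle3 and Tle2, which overlapped each other; in F/F all 3 overlapped. Ripply3 was at 0.891 ± 0.261 CPM per kilobase in ΔHep and 0.892 ± 0.310 in F/F. Its range overlapped those of Tle2 and Tbx20, the neighbours above and below it, in ΔHep; in F/F it overlapped Tbx2 above it and lay just above Ripply1. At the lower end, Tbx20 and Tle6 overlapped in both genotypes, at 0.609 ± 0.0512 and 0.382 ± 0.261 CPM per kilobase in ΔHep, and at 0.358 ± 0.0922 and 0.414 ± 0.141 in F/F. Ripply1 was last in ΔHep with 0.0464 ± 0.0162 CPM per kilobase, apart from all others, while in F/F it stood at 0.479 ± 0.153 and overlapped Tle6. Merged exon lengths take in all annotated transcripts, so genes with long alternative ends appear lower on this scale.

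Genes beyond the family that act with Groucho proteins were looked at as fixed lists. Of 11 tested DNA-binding partners of Groucho 1 passed, while 1.68% of all genes tested did. It was Runx2, a runt-domain factor of bone, with 0.681, 1.50 and 1.16 CPM in ΔHep, against 0.225, 0.156 and 0.215 CPM in F/F (log2 fold change 2.47, SE 0.48; edgeR, adjusted p = 0.0469). Its adjusted p was 0.117 without ΔHep replicate 2, 0.139 without ΔHep replicate 3, 0.179 and 0.185 without F/F replicates 1 and 2, 0.0514 with no filter and 0.0804 with the replicate number as a block. Runx2 had 23, 49 and 44 reads in ΔHep replicates 1, 2 and 3, against 6, 5 and 6 reads in F/F replicates 1, 2 and 3. Each F/F library was under the filter's minimum count of 10, so Runx2 entered the test only through its ΔHep reads. Stellate cell and T and NK cell markers were higher in the same ΔHep libraries, and their part in the level of Runx2 was not tested. Foxa1, a pioneer factor of liver genes, had 16.8, 19.4 and 16.0 CPM in ΔHep, against 29.7, 25.0 and 24.2 CPM in F/F. Its groups did not overlap, and the log2 fold change of -0.60 (SE 0.13) did not pass in edgeR (adjusted p = 0.064) but did in DESeq2 (adjusted p = 0.00663) and without F/F replicate 3 (adjusted p = 0.0322). The median log2 fold change of the 11 was -0.12.

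Of 12 other co-repressor and deacetylase genes 0 passed in edgeR or in DESeq2, and 1 was lower at an unadjusted p below 0.05. That one was Hdac2, a deacetylase of the kind Groucho proteins recruit, with 17.4, 20.2 and 19.5 CPM in ΔHep, against 24.0, 22.8 and 22.0 CPM in F/F (log2 fold change -0.27, SE 0.12; adjusted p = 0.231). Ctbp2, a co-repressor that senses NADH, had a log2 fold change of 0.50 (SE 0.23; edgeR, adjusted p = 0.258). The median of the 12 was 0.00.

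Of 6 tested genes reported elsewhere as targets that Tbx2 or Tbx3 represses or regulates, 0 passed in edgeR and 3 in DESeq2. Over all 18260 genes, DESeq2 called 1304. At an unadjusted p below 0.05, 4 were higher in ΔHep and 0 lower, against 14.1% higher and 6.97% lower of all genes tested, and the median log2 fold change was 0.89. Ndrg1, a stress-induced gene, had 19.2, 15.5 and 16.6 CPM in ΔHep, against 9.59, 9.16 and 12.8 CPM in F/F, with no overlap (log2 fold change 0.71, SE 0.17; edgeR, adjusted p = 0.0687). Ndrg1 passed in 3 alternatives: DESeq2 (adjusted p = 0.0095), library totals without scaling (0.0381) and without F/F replicate 3 (0.0193). Gja5, the gap junction protein connexin 40 of endothelial cells, had 2.34, 2.63 and 1.43 CPM in ΔHep, against 0.749, 0.935 and 0.968 CPM in F/F (log2 fold change 1.26, SE 0.34; edgeR, adjusted p = 0.0938; DESeq2, 0.0305). Endothelial markers were higher in the same ΔHep libraries, and their part in the level of Gja5 was not tested.

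By the root mean square difference of log2 CPM, each gene centred over the 6 libraries, the genes nearest to Tbx3 were Suv39h2 (0.175), Gm42293 (0.200) and Mtmr4 (0.216), all of them under 2 CPM in each library. Those nearest to Tle1 were Dync2h1, Pglyrp2 and Ncoa1 (0.0416 to 0.0526), to Tle2 Grcc10, Tmem30b and Ndufa4 (0.0271 to 0.0382), to Tle3 Tbc1d7, Zfp946 and Zc2hc1c (0.0745 to 0.110), and to Tle4 Ube2a, Ubxn4 and Pole3 (0.0202 to 0.0410). The genes nearest to Tle6, Mycn, Pih1d2 and Slc41a2, were at 0.206 to 0.277, farther than those of the other Tle genes. With 6 libraries and 14552 genes, small differences arise readily, and low counts widen them.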

How the data were processed

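The authors deposited raw read counts per gene symbol, 1 column for each of 6 libraries. The alignment was to mm10 with HISAT2 2.0.4, per the submitters' processing notes; no source used here gives the counting program, annotation or strand setting. Counts were analysed with edgeR 4.0.16 in R 4.3.3: filterByExpr (minimum count 10, minimum total 15), TMM scaling, quasi-likelihood F test, Benjamini-Hochberg adjustment. SE is the size of the log2 fold change divided by the square root of F. The test was checked on simulated data. DESeq2 1.42.0, other scalings, no filter, a replicate block and leaving out each library were alternatives. Within a group, chi-square over its degrees of freedom between libraries was 15.6 to 95.3. All 6 libraries were kept, and these ratios do not test whether any of them stands apart. Exon lengths came from GENCODE M21. The interval of the pooled Ripply1 ratio and the floors cover counting error only; the other intervals are edgeR's and include the spread between libraries. The genes and lists were chosen with earlier results of these data known. Named genes were all 10 members, genes past the threshold in each list (up to 4, otherwise the lowest p until 2), every further T-box gene with a read, and the 3 nearest to Tbx3 and each Tle gene; of marker lists, sums and counts are given. Glul, Hhex and Cdh1 fall outside this rule.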

Additional observations from a re-analysis of the deposited data

How the results depend on the processing

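The count of 0 among the 9 genes became 1 with DESeq2, or 2 of the 10 with Ripply1, and 0 to 1 when 1 library was left out. Ripply1 had a log2 ratio of -3.36 with DESeq2 (adjusted p = 0.035), and -3.23 in edgeR without the filter (adjusted p = 0.0756). Tbx20 passed at 0.76 with DESeq2, and ran from 0.59 to 0.94 when 1 library was left out. Ripply3, near 0 in the main fit, was -0.0064 with DESeq2, -0.0020 with its size factors in edgeR and -0.0026 without the filter. Ripply3 ran from -0.21 to 0.30 when 1 library was left out. Glul ran from -0.56 to 0.013 when 1 library was left out. Tle6 ran from -0.74 to 0.29, Tbc1d7 from -0.34 to 0.037, Mycn from -1.05 to 0.14 and Slc41a2 from -0.66 to 0.40 when 1 library was left out, and Slc41a2 was -0.073 with the replicate block. Over all genes, 244 passed, against 1304 with DESeq2, 644 with library totals unscaled and 1 to 1246 when 1 library was left out; the cause was not tested. Tbx2, Tbx3, Tle1, Tle2, Tle3 and Tle4 kept their direction and stayed short of the threshold in all 11 alternatives. For ΔHep and F/F libraries with the same number, the correlations of their deviations were 0.0993, -0.0665 and -0.0069 for numbers 1, 2 and 3. For libraries with different numbers they ran from -0.114 to 0.123. With 3 libraries per group, these values cannot decide whether the number pairs libraries, and the labels do not say that it does. With the replicate block, 236 genes passed, and 0 of the 9. Ripply1, Tbx21, Eomes and Tbx6 had too few reads for a firm size of change.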

Other observations

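Hhex, a homeobox factor of liver development that binds Groucho proteins, was chosen after its values were seen. It had 36.9, 61.3 and 50.2 CPM in ΔHep replicates 1, 2 and 3, against 103, 69.2 and 104 CPM in F/F replicates 1, 2 and 3. Every ΔHep library was below every F/F library, and the log2 fold change was -0.89 (SE 0.21; edgeR, adjusted p = 0.0687; DESeq2, 0.00193). Cdh1, E-cadherin of epithelial cells, from the list of reported Tbx2 and Tbx3 targets and also chosen after its values were seen, had 28.6, 89.0 and 91.2 CPM in ΔHep, against 28.0, 33.2 and 48.3 CPM in F/F. Replicates 2 and 3 of ΔHep were above all F/F libraries and replicate 1 was within their range (log2 fold change 0.93, SE 0.40; edgeR, adjusted p = 0.228). Cdh1 passed without ΔHep replicate 1 (1.30; edgeR, adjusted p = 0.0374). The 10 cholangiocyte markers, which are epithelial, summed to 94.9, 167 and 89.9 CPM in ΔHep replicates 1, 2 and 3, against 51.7, 51.0 and 108 CPM in F/F replicates 1, 2 and 3, and their part was not tested. Spp1 alone held 49.8, 111 and 57.4 CPM of these sums in ΔHep, against 28.4, 21.5 and 81.5 CPM in F/F.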
